A study of Homo sapiens with 3 samples.

Results

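Binding of the transcription factor ETS1 was examined around 9 genes of MHC class I antigen presentation in SCC25. This established line was derived from a tongue tumor and serves as a mesenchymal model of head and neck squamous cell carcinoma (HNSCC). The genes were HLA-B, HLA-C, HLA-E, B2M, TAP1, TAP2, TAPBP, NLRC5 and IRF1. They were picked by name from the 19881 protein-coding genes with a canonical transcription start site (TSS) in GENCODE 44, and each was assigned the ETS1 peaks whose midpoint lay in its gene body or within 20 kb of it. By this rule the 9 genes held 24 distinct peaks of the 26970 in the list.

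The data came from ChIP-Seq of 3 samples of SCC25 with no treatment named in the labels, where the ETS1 antibody was C20 in 2 and 501A in 1. Reads of 50 bases that mapped to a single locus of hg19 were retained, and the peaks shared across all samples by the IDR (Irreproducible Discovery Rate) procedure were merged into a single list of positions. The list has no height, score or value per sample, so there was no spread between replicates, the antibodies could not be compared, and the depth behind each peak is unknown. Every result is therefore a count, a position or a width from 1 cell line, and intervals (95% Wilson) cover counting error only. A list of peaks holds no expression values, so neither the cell type nor the activity of these genes could be checked against it.

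MHC class I molecules display peptides from inside the cell to CD8+ T cells and natural killer cells. Immunoproteasomes cut the peptides, the TAP transporter moves them into the endoplasmic reticulum, tapasin loads them onto a heavy chain paired with beta-2-microglobulin, and the complex travels to the surface. Transcription of several genes of this pathway is driven by NLRC5, which works through a conserved promoter module. This SXY module is bound by RFX, CREB/ATF and NF-Y factors. IRF1 and NF-kappa B also drive genes of the pathway, downstream of interferon and inflammatory signals. ETS factors bind sites with the core GGAA.

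The sequences upstream of the TSS are shown first for the HLA heavy chains, because HLA-B was the only gene of the 9 without a peak although its promoter is close in sequence to that of HLA-C. Each is 200 bases of the reference genome GRCh37 (hg19) on the strand of the gene, written 5′ to 3′ and ending at the base before the canonical TSS. Capitals mark the ETS core, GGAA or its reverse complement TTCC. They lie at chr6:31324957-31325156 (minus strand, HLA-B), chr6:31239870-31240069 (minus strand, HLA-C) and chr6:30457086-30457285 (plus strand, HLA-E).
HLA-B: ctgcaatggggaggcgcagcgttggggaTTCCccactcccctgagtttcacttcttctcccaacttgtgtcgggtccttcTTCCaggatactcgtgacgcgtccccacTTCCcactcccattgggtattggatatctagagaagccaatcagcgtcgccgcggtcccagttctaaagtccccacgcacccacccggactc
HLA-C: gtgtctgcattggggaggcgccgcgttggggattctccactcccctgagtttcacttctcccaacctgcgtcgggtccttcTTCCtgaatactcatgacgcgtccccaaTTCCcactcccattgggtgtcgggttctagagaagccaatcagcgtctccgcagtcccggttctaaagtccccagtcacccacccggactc
HLA-E: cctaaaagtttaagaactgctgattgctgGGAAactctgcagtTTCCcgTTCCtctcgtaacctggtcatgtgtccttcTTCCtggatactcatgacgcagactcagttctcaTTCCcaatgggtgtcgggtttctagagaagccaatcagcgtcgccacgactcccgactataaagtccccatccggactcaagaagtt
The HLA-B and HLA-C sequences were identical at 179 of 204 aligned columns (87.7%), whereas HLA-E was 68.7% identical to HLA-B and 69.0% to HLA-C. The windows held 3 ETS cores for HLA-B, 2 for HLA-C and 5 for HLA-E. The core that HLA-B had and HLA-C lacked began 172 bp upstream of the TSS, within a match to the kappa B motif. The other ETS cores of HLA-B, at 120 and 92 bp, had counterparts in HLA-C at 119 and 91 bp.

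B2M, TAP1 and TAPBP are shown next as the 3 genes in which an interferon response core (GAAANNGAA on either strand) shared bases with an ETS core. Capitals again mark the ETS core. They lie at chr15:45003515-45003714 (plus strand, B2M), chr6:32821482-32821681 (minus strand, TAP1) and chr6:33281856-33282055 (minus strand, TAPBP).
B2M: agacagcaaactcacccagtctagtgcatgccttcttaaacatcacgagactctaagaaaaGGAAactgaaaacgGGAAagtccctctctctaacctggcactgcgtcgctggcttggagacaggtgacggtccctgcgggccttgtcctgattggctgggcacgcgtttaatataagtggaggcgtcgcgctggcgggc
TAP1: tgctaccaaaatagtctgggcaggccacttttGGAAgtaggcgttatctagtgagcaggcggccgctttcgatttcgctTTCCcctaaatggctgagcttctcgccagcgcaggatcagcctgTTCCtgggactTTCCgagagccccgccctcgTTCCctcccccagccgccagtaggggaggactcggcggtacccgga
TAPBP: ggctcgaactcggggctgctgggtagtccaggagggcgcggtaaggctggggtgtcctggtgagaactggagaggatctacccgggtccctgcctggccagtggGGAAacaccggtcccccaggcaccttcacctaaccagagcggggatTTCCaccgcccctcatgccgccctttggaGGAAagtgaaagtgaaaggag
In each of them the interferon response core occurred at 2 overlapping positions, which began 144 and 138 bp upstream of the TSS in B2M, 133 and 127 bp in TAP1, and 20 and 14 bp in TAPBP. TAP2 had a single match, 58 bp upstream, that shared no base with an ETS core.

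ETS1 peaks lay at the TSS of 8 of the 9 genes, and HLA-B was the exception. A peak midpoint fell in the gene body or within 20 kb for 8 of 9 genes, where 75.7% of all protein-coding genes had one. A peak with its midpoint within 500 bp of the canonical TSS, called a TSS peak here, was present at the same 8 genes (88.9%, 95% interval 56.5% to 98.01%), where 46.7% of all protein-coding genes had one. The interval is wide with 9 genes, and the genes are neither independent nor a random draw. Of the 9, 6 lie in the MHC region of chromosome 6, and TAP1 and TAP2 are neighbours. They were also chosen with earlier results of these data known. The median number of peaks per window was 3 for the 9 genes, 1 for all protein-coding genes and 2 for the genes with a TSS peak. The windows of the 9 genes were not larger than usual, with a median of 53.2 kb beside 67.6 kb. The median distance from the TSS to the nearest peak midpoint was 155 bp, compared with 662 bp for all genes and 150 bp for those with a TSS peak.

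**Figure D1:**
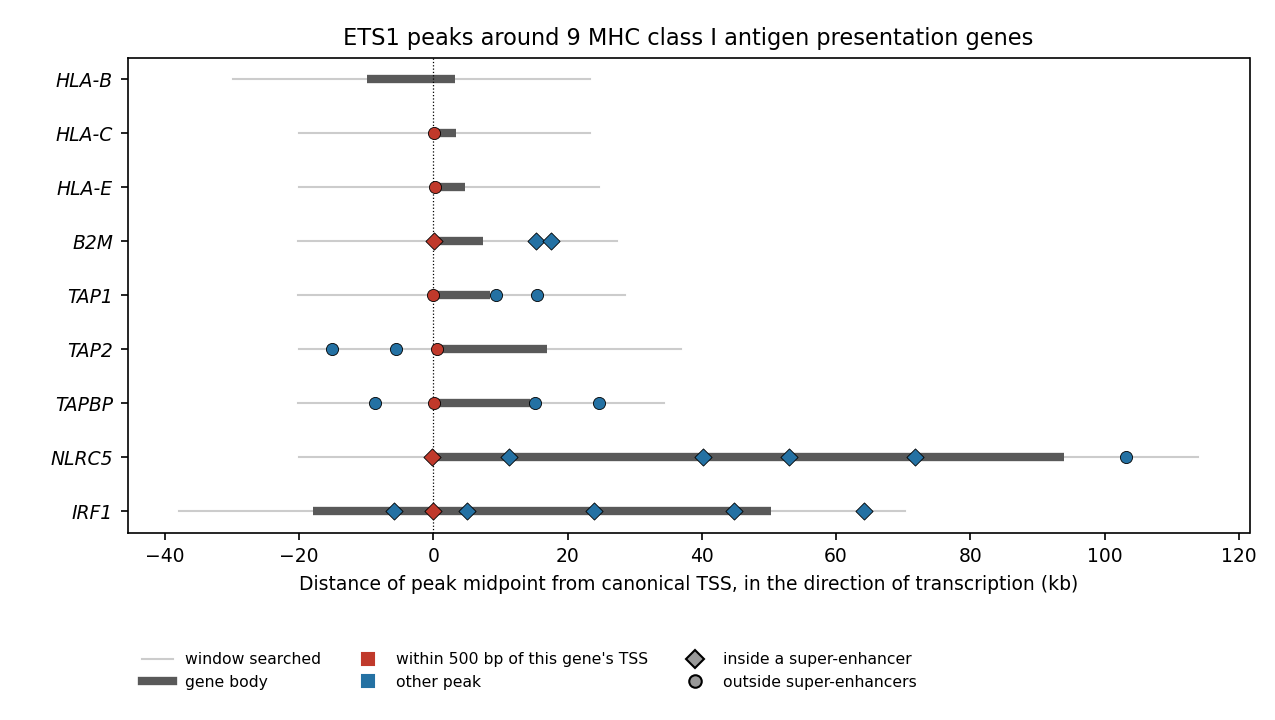
Position of each ETS1 peak midpoint around the 9 genes, in kb from the canonical TSS and in the direction of transcription (negative is upstream). Dark bars are gene bodies, thin lines the windows searched, red symbols TSS peaks, blue symbols other peaks, and diamonds peaks inside a super-enhancer. There is a red symbol for 8 genes and none for HLA-B, and the blue diamonds belong to B2M, NLRC5 and IRF1.

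The peptide-presenting heavy chains carried the fewest peaks. HLA-B (ENSG00000234745, chr6:31321649-31334844, minus strand), a classical heavy chain, had 0 peaks in its window of 53.2 kb. The peak nearest to its TSS (position 31324956) was chr6:31367341-31368751, 43.1 kb upstream and 3326 bp from the TSS of MICA, a stress-induced ligand of natural killer cells. On the other side the nearest peak was the HLA-C peak, 85.3 kb away. The interval of 128 kb between these midpoints compared with a median of 27.03 kb between neighbouring peaks, and 16.2% of all such intervals were longer.

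HLA-C (ENSG00000204525, chr6:31236526-31239907, minus strand), also a classical heavy chain and a main ligand of inhibitory receptors on natural killer cells, had 1 peak. It spanned chr6:31239045-31240350 (1306 bp), with its midpoint 171 bp downstream of the TSS in intron 1. HLA-E (ENSG00000204592, chr6:30457286-30461971, plus strand), the heavy chain recognised by the CD94/NKG2 receptors, likewise had 1 peak. It spanned chr6:30456724-30458409 (1686 bp), and its midpoint lay 281 bp downstream of the TSS in the coding part of exon 2. No further peak fell within 20 kb of either gene, and 25.8% of protein-coding genes had exactly 1 peak.

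B2M (ENSG00000166710, chr15:45003556-45011049, plus strand), the light chain that all class I molecules need, had 3 peaks. The TSS peak, chr15:45003320-45004397 (1078 bp), had its midpoint 144 bp downstream of the TSS, in intron 1, and also covered the TSS of PATL2. The other 2 lay beyond the 3′ end of the gene, 15.2 kb and 17.5 kb from the TSS, at chr15:45018799-45019101 (303 bp) and chr15:45020495-45021859 (1365 bp). For both the nearest canonical coding TSS was that of TRIM69, at 9776 and 7549 bp, and the second midpoint lay 9 bp from an alternative start of TRIM69. The peak of 303 bp was the narrowest of the 24.

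TAP1 (ENSG00000168394, chr6:32812986-32821593, minus strand) and TAP2 (ENSG00000204267, chr6:32789610-32806516, minus strand), the subunits of the peptide transporter, start 14.97 kb apart and shared the same 3 peaks. The TAP1 peak, chr6:32820304-32822841 (2538 bp), had its midpoint 92 bp upstream of the TAP1 TSS and covered that of PSMB9 as well, an immunoproteasome subunit transcribed away from TAP1 whose TSS is 488 bp distant. The peak between the transporter genes, chr6:32811278-32812901 (1624 bp), lay 266 bp from the TSS of PSMB8, another immunoproteasome subunit. The TAP2 peak, chr6:32805264-32806788 (1525 bp), had its midpoint 490 bp downstream of the TSS in intron 1, just inside the limit of 500 bp. All 3 peaks of this cluster therefore covered the start of a gene for peptide cutting or transport.

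TAPBP (ENSG00000231925, chr6:33267471-33282061, minus strand), which encodes tapasin, the bridge between the transporter and the heavy chain, had 4 peaks. Its TSS peak, chr6:33280233-33283375, was 3143 bp wide with the midpoint 51 bp downstream of the TSS in the coding part of exon 1. The other 3 peaks stood at the starts of neighbouring genes, namely DAXX, a histone H3.3 chaperone (chr6:33289454-33291663, 177 bp from its TSS), RGL2 (chr6:33265369-33268170, 51 bp) and PFDN6, a prefoldin subunit (chr6:33256525-33257910, 160 bp).

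The regulators had the most peaks, in the largest windows. Those of NLRC5 lay mostly along the gene, and those of IRF1 mostly along an annotated gene body that extends past its canonical transcript. Per 100 kb of window, NLRC5 had 4.48 and IRF1 5.54 peaks, fewer than B2M (6.32), TAP1 (6.17) and TAPBP (7.33) and more than HLA-C (2.31) and HLA-E (2.24). NLRC5 (ENSG00000140853, chr16:57023397-57117443, plus strand), the class I transactivator, had 6 peaks. The TSS peak, chr16:57022459-57024169 (1711 bp), was centred 155 bp upstream of the TSS. Inside the gene, peaks of 1490, 891, 1639 and 1193 bp lay in introns 1, 8, 19 and 30, at 11.2, 40.1, 53.0 and 71.8 kb from the TSS. The sixth, chr16:57125082-57128295 (3214 bp), lay beyond the end of NLRC5 and 194 bp from the TSS of CPNE2, and was the widest of the 24.

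IRF1 (ENSG00000125347, chr5:131776132-131844411, minus strand), the interferon-induced activator of class I promoters, also had 6 peaks. The TSS peak, chr5:131825563-131827590 (2028 bp), was centred 112 bp upstream. A peak of 1905 bp lay 5790 bp upstream of the TSS, 96 bp from an alternative IRF1 start. A peak of 1127 bp lay 4952 bp downstream in intron 7, 105 bp from another annotated IRF1 start. The remaining peaks, of 1077, 735 and 959 bp, were 23.9, 44.8 and 64.1 kb downstream of the TSS, past the canonical transcript. The first 2 of these lay inside the annotated gene body, which longer transcripts extend. The last lay beyond it, 65 bp from an annotated start of LINC02863. Of all protein-coding genes, 6.30% had 6 or more peaks in their window, and the windows of NLRC5 (134 kb) and IRF1 (108 kb) were the largest of the 9.

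**Figure D2:**
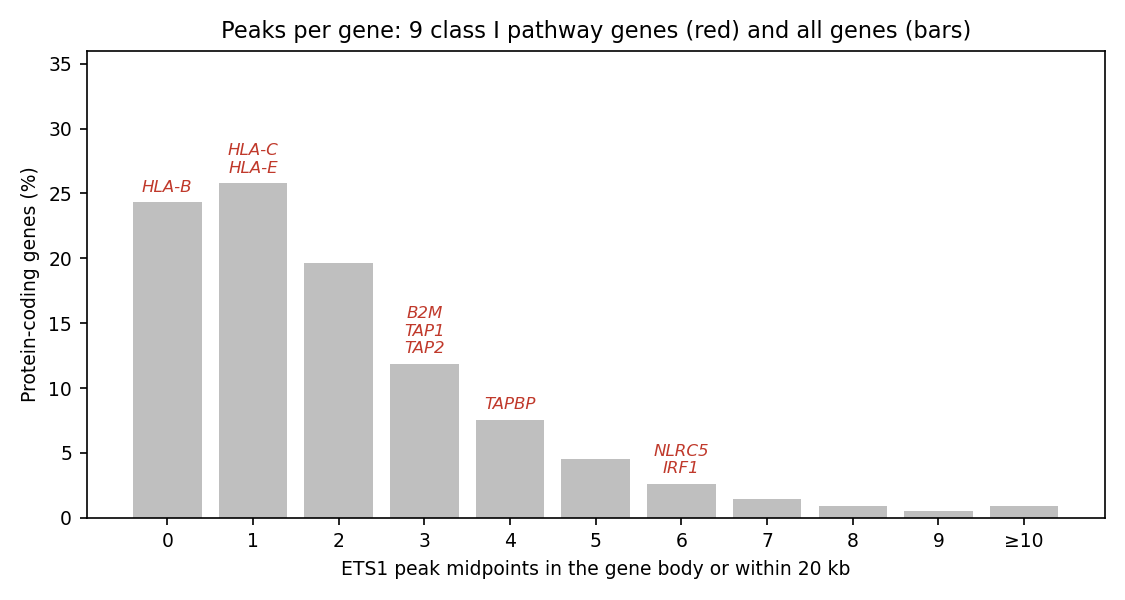
Share of the 19881 protein-coding genes (grey bars, %) by the number of ETS1 peak midpoints in the gene body or within 20 kb, with the names of the 9 genes in red above their own count. HLA-B stands at 0 with 24.3% of all genes, HLA-C and HLA-E at 1 with 25.8%, and NLRC5 and IRF1 at 6 with 2.59%.

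Of the 24 peaks, 8 were TSS peaks of the genes themselves and 16 lay elsewhere. Among these 16, 5 were within 500 bp of the canonical TSS of another protein-coding gene (PSMB8, DAXX, RGL2, PFDN6 and CPNE2). The other 11 were farther than 500 bp from any canonical coding TSS. Some of the 11 lay near other annotated starts. These were alternative starts of TRIM69, at 9 bp, and of IRF1, at 96 and 105 bp, and a start of LINC02863, at 65 bp. The nearest coding TSS belonged to NLRC5 or IRF1 for 4 of the 16 and to a gene outside the 9 for the other 12. Peaks on chromosome 6 thus sat at gene starts, with no exception among the 9 there. The 11 peaks away from canonical coding starts belonged to the windows of B2M, NLRC5 and IRF1.

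The same division held for super-enhancers (SEs), the long clusters of H3K27Ac-marked chromatin that the study called in SCC25. All 3 peaks of B2M, all 6 of IRF1 and 5 of 6 of NLRC5 overlapped an SE, the exception being the peak at CPNE2. None of the 9 peaks on chromosome 6 did. In total 14 of 24 peaks (58.3%) lay in an SE, where 17.2% of all nuclear peaks did, but these 14 came from only 3 genes and peaks of the same SE are not independent.

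Peaks of the 9 genes were wider than most. Their median width was 1507.5 bp (range 303 to 3214 bp) and 20 of 24 exceeded 969 bp, the median of all nuclear peaks. The 8 TSS peaks had a median of 1698.5 bp and ranged from 1078 bp at B2M to 3143 bp at TAPBP, beside a median of 1288.5 bp for all peaks at a coding TSS and 796 bp for the rest. The other 16 had a median of 1375.5 bp. In this list TSS peaks and wide peaks go together, and widths were set by the peak caller, so a width is not a measure of occupancy.

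The order of the list is not explained in the sources used here, but early peaks were wider and more often at a TSS. From the first to the last 10% of the list, the median width went from 1302 to 665 bp and the share at a coding TSS from 45.3% to 15.2%. The TSS peaks of the 9 genes stood late in this order. Only that of TAP2 was among the first 13485 peaks, at position 11464, whereas the others ran from position 14437 (B2M) to 26423 (HLA-C). Thus 7 of 8 were among the last 13485 peaks, where 36.9% of all peaks at a coding TSS were. When the first 13485 peaks were used alone, 1 of 9 genes kept a TSS peak, and 30.3% of all protein-coding genes did. Of the 11 peaks over 500 bp from any canonical coding TSS, 6 were among the last 13485, beside 55.8% of all peaks not at a coding TSS. Among the TSS peaks, the latest were those of IRF1, HLA-E and HLA-C, at positions 20722, 22277 and 26423.

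Because reads with several loci were removed, the uniqueness of the sequence around each TSS was measured in the reference. The share of 50-base stretches within 1 kb of the TSS that had no exact copy elsewhere was 97.1% for HLA-B, 96.2% for HLA-C, 93.1% for HLA-E and 96.2% for TAP2, and 100% for B2M, TAP1, TAPBP, NLRC5 and IRF1. Counting copies with up to 2 mismatches as well, the share was 60.2% for HLA-B, 61.8% for HLA-C, 76.5% for HLA-E, 88.5% for TAP2 and 99.7% for NLRC5, and 100% for the other 4. For HLA-B all 776 stretches with such a copy had the first one found inside the MHC, as had all 745 of HLA-C, and 94 of the 459 of HLA-E. HLA-B, without a peak, and HLA-C, with a peak, were therefore close to each other by this measure. Over the whole window searched for peaks, HLA-E and HLA-C had the lowest exact shares of the 9 genes. These were 87.1% for HLA-E and 89.3% for HLA-C, and HLA-B had 96.3%. The effect of this on their counts of peaks was not tested. Across the genome, 2.55% of the 705 genes with under 60% of exact single-locus stretches had a TSS peak, compared with 48.4% of the other genes. Of the 1754 genes under 90%, 18.6% had one, compared with 49.5% of the others. By exact copies none of the 9 genes fell in either range. Copies with mismatches were counted for the 9 genes only, so they could not be placed among all genes by that measure. The effect of inexact copies on the absence of a peak at HLA-B was not tested. These shares describe the reference genome, which carries a single HLA haplotype, and the HLA alleles of SCC25 were not analysed here, so how their reads map to HLA-B, HLA-C and HLA-E is not known.

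**Figure D3:**
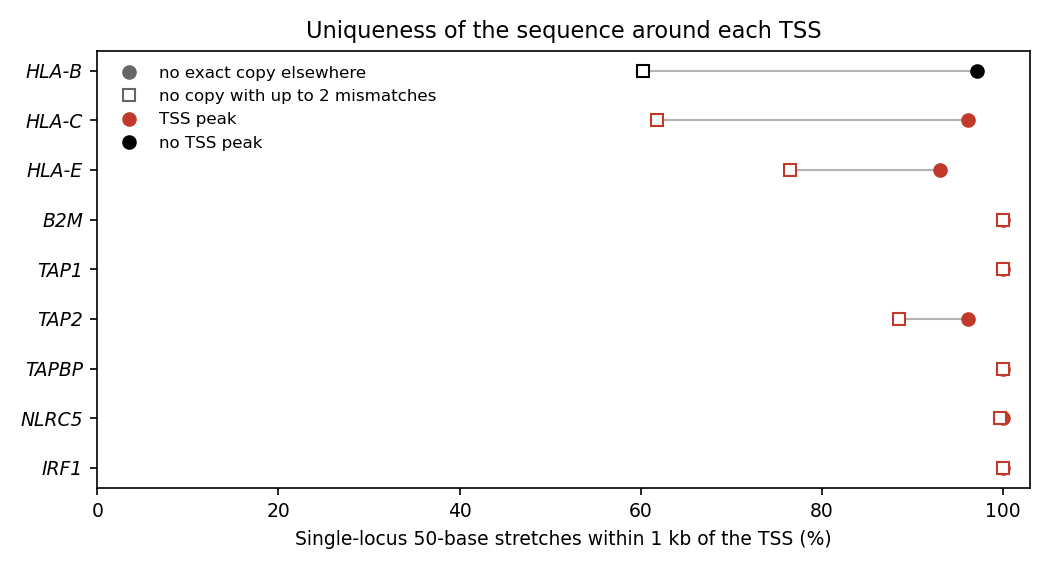
Share of 50-base stretches within 1 kb of each TSS (%) that occur at a single locus of the reference, without an exact copy elsewhere (filled circles) or without a copy of up to 2 mismatches (open squares), for the 9 genes. Red marks genes with a TSS peak and black the gene without. HLA-B (97.1% and 60.2%) and HLA-C (96.2% and 61.8%) lie side by side.

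Motifs were counted as letters on both strands in the 200 bp upstream of each TSS, which are descriptions and not bound sites. The ETS core GGAA was found in all 9 promoters, but also in 86.6% of all protein-coding promoters. The longer ETS site CCGGAAGT, which contains the core, was in none of the 9. It was in 4.799% of all promoters, in 8.95% of those with a TSS peak and in 1.15% of those without. Across the whole length of the peaks, all 24 held a GGAA, with a median of 13.4 cores per kb (range 4.59 to 23.1) beside 11.9 for all nuclear peaks, and 3 of 24 held CCGGAAGT, beside 6.58% of all nuclear peaks and 9.23% of those above the median width. Those 3 were the narrow peak downstream of B2M and the peaks at DAXX and PFDN6, and no TSS peak of the 9 genes held one.

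Motifs of interferon and NF-kappa B signalling were counted separately, each beside its own share of all promoters. The interferon response core GAAANNGAA, letters recognised by IRF factors, was present in B2M, TAP1, TAP2 and TAPBP, so in 4 of 9 promoters, where 4.67% of all promoters had it. Other forms of the interferon response element were not searched for, so a promoter without a match may still hold one. The kappa B motif was present in 6 of 9 (HLA-B, HLA-C, B2M, TAP1, TAPBP and IRF1), compared with 9.36% of all promoters. Its pattern can take in GGAA or TTCC, so that it can share bases with an ETS core. TTCNNNGAA, the GAS element of interferon gamma signalling, was found in IRF1 alone, 124 bp upstream, where it began at the same base as an ETS core, and in 4.34% of all promoters.

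Letters of the kind found in the SXY module were shared by the heavy chains and B2M. TGACG, the core of CREB/ATF sites, began 106, 105 and 107 bp upstream of the TSS in HLA-B, HLA-C and HLA-E and 75 bp upstream in B2M, and was also in TAP2 and IRF1, making 6 of 9 beside 22.6% of all promoters. CCAAT, the NF-Y box, was in 5 of 9 (HLA-B, HLA-C, HLA-E, B2M and IRF1) beside 30.3% of all promoters. On the gene's own strand a match began 56, 56 and 57 bp upstream in HLA-B, HLA-C and HLA-E. HLA-C and HLA-E had a further match on that strand at 95 and 84 bp. On the other strand (ATTGG), matches began 81 and 74 bp upstream in HLA-B, 192 and 80 bp in HLA-C and 49 bp in B2M. HLA-E had no match on the other strand. Which of these matches belongs to the SXY module was not tested. In these 200 bp the promoter of HLA-B without a peak held every motif of this set that the promoter of HLA-C held. In 600 bp the GC box GGGCGG was upstream of HLA-C and not of HLA-B, and the GAS element upstream of HLA-B and not of HLA-C. The AP-1 motif TGAGTCA was in 0 of 9, beside 2.48% of all promoters, and the GC box GGGCGG in 5 of 9, beside 56.4%. The GC box was in 70.0% of promoters with a TSS peak and in 44.5% of those without.

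**Figure D4:**
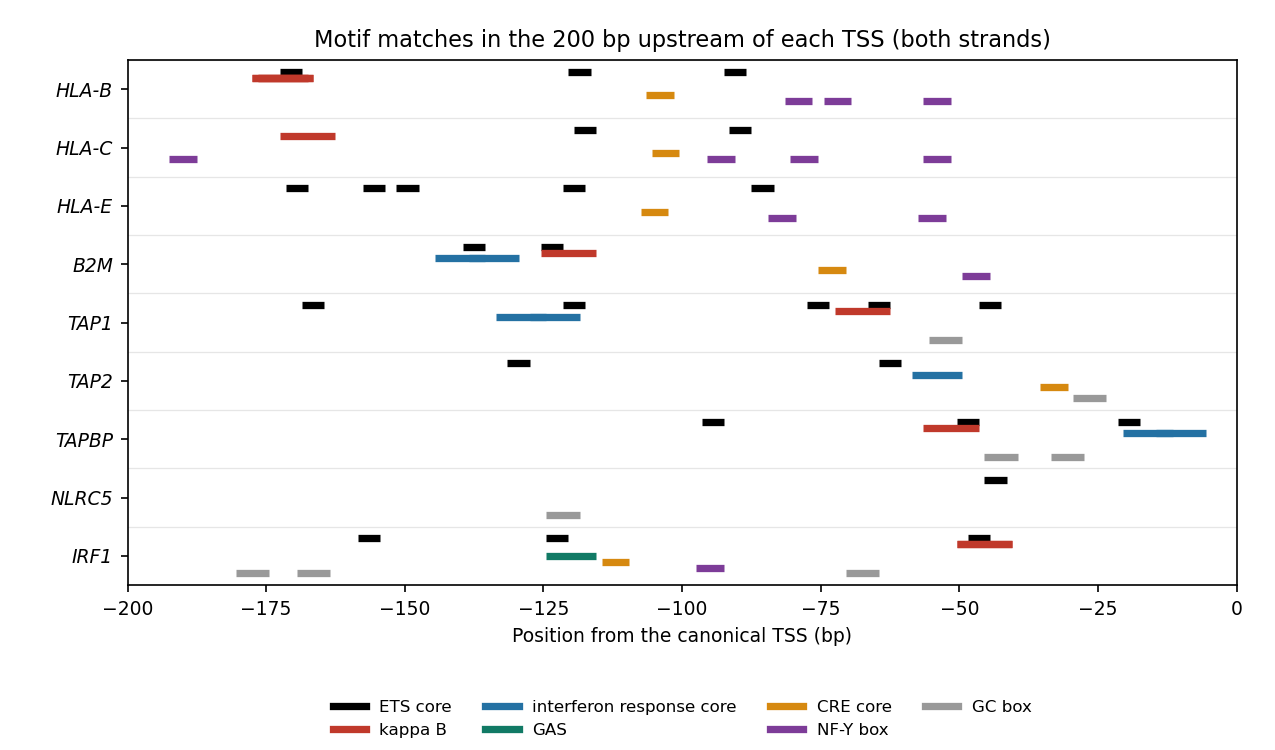
Matches of 7 motifs in the 200 bp upstream of the canonical TSS of the 9 genes, both strands, by position in bp from the TSS. Each bar is a match, coloured by motif. The CRE core (orange) of HLA-B, HLA-C and HLA-E lines up at 105 to 107 bp upstream, and the interferon response core (blue) appears for B2M, TAP1, TAP2 and TAPBP.

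At the midpoints of the peaks themselves, which are not summits, a window of 200 bp held the ETS core in 7 of the 8 TSS peaks and in 15 of the 16 others, beside 89.9% of all nuclear peaks. The interferon response core was in 2 of 8 TSS peaks beside 3.05% of all coding TSS peaks, and the kappa B motif in 4 of 8 beside 10.9%. The AP-1 motif, which marks many distal elements in epithelial cells, was in 0 of 8 TSS peaks and 3 of the 16 others, beside 1.53% of coding TSS peaks and 16.9% of the rest. Over their whole length, 10 of the 24 peaks held an AP-1 motif, beside 32.955% of all nuclear peaks and 31.1% of those above the median width.

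CpG content was also measured, because it differed across the genome between promoters with and without a TSS peak. Within 300 bp of the TSS, the observed over expected CpG ratio had a median of 0.839 for genes with a TSS peak, 0.531 for those without and 0.701 for the 9 genes. HLA-B stood at 0.693 with a GC content of 65.7%, between HLA-C (0.646) and HLA-E (0.701). TAPBP had the lowest ratio at 0.578 and IRF1 the highest at 0.931. The part of CpG content in the absence of a peak at HLA-B was not tested.

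Other genes of the pathway were counted from lists grouped by role, beside the 46.7% of all protein-coding genes with a TSS peak. Intervals were wide, at 40.9% to 92.9% for other class I and class I-like chains and 35.9% to 91.8% for peptide supply and trimming. That of the chaperones of loading was wider still, and each of these intervals included 46.7%. Among other class I and class I-like chains, 6 of 8 had a TSS peak. HLA-G, the heavy chain of the placenta, had 0 peaks with the nearest midpoint 35.2 kb away, and MR1, which presents vitamin B metabolites, had its nearest midpoint 693 bp from the TSS. FCGRT, the neonatal Fc receptor, had 7 peaks and HLA-F had 3. Among the genes for peptide supply and trimming, 5 of 7 had a TSS peak, among them PSMB8 and PSMB9 through the peaks beside TAP1. PSME2, a proteasome activator subunit with 4 peaks, missed the limit at 786 bp, and ERAP2, a trimming peptidase, had its nearest midpoint 59.3 kb from the TSS. Of 4 chaperones of loading, CANX and TAPBPL had a TSS peak, while CALR (calreticulin) had 7 peaks with the nearest at 616 bp, and PDIA3 had its nearest midpoint at 30.2 kb.

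The factors that act with or upstream of NLRC5 and IRF1 were counted in the same way, beside the same 46.7% of all protein-coding genes. Intervals were again wide, at 52.9% to 97.8% for the SXY module factors and 21.5% to 78.5% for the other IRF genes. Of 8 SXY module factors, 7 had a TSS peak, and RFXAP, a subunit of the RFX complex, had its nearest midpoint 147 kb away. Of 10 interferon receptors, kinases, STATs and SOCS1, 9 had a TSS peak and the remaining gene, the receptor chain IFNAR2, had 6 peaks with the nearest at 518 bp. Of 8 other IRF genes, 4 had a TSS peak. IRF3 had 6 peaks, while IRF5 had 0 in its window. The nearest midpoints were at 633 bp for IRF2, 1779 bp for IRF7 and 17.5 kb for IRF8.

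MHC class II genes, which present extracellular antigens and are mostly restricted to immune cells, gave a different count. Of 12, 1 had a TSS peak (8.33%, interval 1.49% to 35.4%), namely CIITA, the class II counterpart of NLRC5, with 7 peaks in its window, and 8 of 12 had no peak in the window, beside 24.3% of all protein-coding genes. The lists are small, their genes are neighbours, and no test was made between them. With the first 13485 peaks alone the counts of TSS peaks were 1 of 9 class I genes and 0 of 12 class II genes.

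The blocks of the MHC that hold 6 of the 9 genes also gave unequal counts. A TSS peak was present at 28 of 48 genes of the class I block (58.3%, interval 44.3% to 71.2%), 34 of 67 of the class III block (50.7%, 39.1% to 62.3%), 4 of 20 of the class II block (20%, 8.07% to 41.6%) and 9 of 11 of the extended class II block (81.8%, 52.3% to 94.9%). The rest of chromosome 6 stood at 53.6%. The class II block had 0.923 peaks per 100 kb, beside 3.86, 6.33 and 8.29 in the class I, class III and extended class II blocks. In the class II block all 4 genes with a TSS peak were TAP1, TAP2, PSMB8 and PSMB9, which serve class I presentation.

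**Figure D5:**
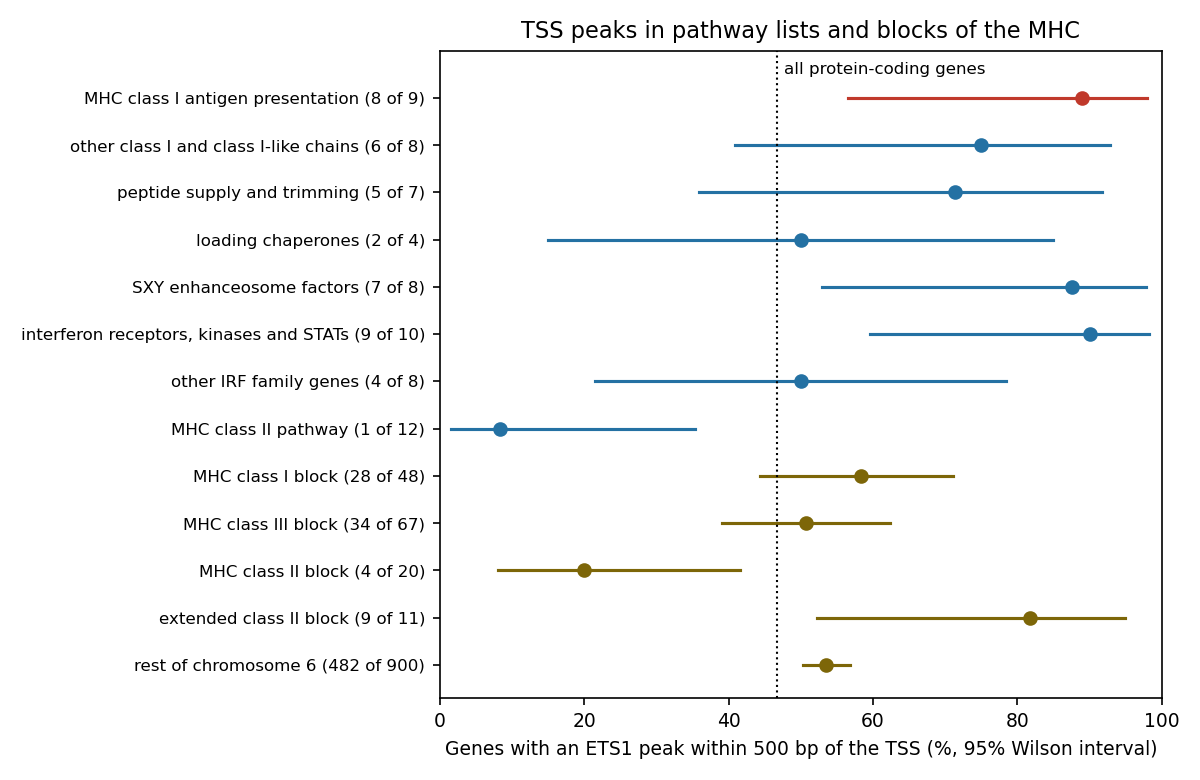
Share of genes with an ETS1 peak within 500 bp of the canonical TSS (%, points) with 95% Wilson intervals (lines) for the 9 class I genes (red), lists of related genes (blue) and blocks of chromosome 6 (brown). The dotted line is the share among all protein-coding genes, 46.7%. The class II pathway (8.33%) and the class II block (20%) lie below it, and the 9 class I genes (88.9%) above it.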

How the data were processed

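The authors immunoprecipitated ETS1 from sheared SCC25 chromatin and sequenced the DNA. Per the labels, the tools included Bowtie 1.1.1 and SAMtools 1.3. The methods state that reads with several loci were removed, that peaks were called with MACS2 against a merged input, and that IDR selected the shared peaks. The deposited file is a single list of peak positions (start and end, counted from 0) pooled over all samples, with no signal unit. Mapping to a single locus can lose peaks in repeated sequence, and merging hides differences between antibodies.

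Of the 26970 peaks, 26961 were nuclear and were used. Genes, transcripts and sequence came from GENCODE 44 on GRCh37 (the Ensembl canonical transcript gives the TSS). Peaks were assigned by midpoint, within 20 kb of the gene body or 500 bp of the TSS. Single-locus stretches were 50 bases long, within 1 kb of a TSS, with exact copies or up to 2 mismatches on either strand. Promoters were aligned globally with Biopython 1.88. A super-enhancer counted as overlapped from 1 bp, with positions taken from the supplement of the study. The work used Python 3.11.15, numpy 2.4.6, pandas 2.3.3, numba 0.67.0, pysam 0.24.0 and samtools 1.23.1, and the code was tested on simulated data.

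The 9 genes and the lists were chosen with earlier results of these data known. All 9 genes are named. From each list, up to 3 genes with most peaks and up to 5 without a TSS peak are named, and for each peak the gene with the nearest coding TSS. Some genes that this rule would name are not reported here. The genes with TSS peaks named beside CALR and PDIA3, and PATL2, MICA, PSMB9, LINC02863 and the genes of the class II block, were named after their values were seen. No test was made, since there is no value per sample. Alternatives covered the flank, the midpoint rule, the TSS limit, any annotated TSS, the first 13485 peaks, wide peaks, mismatches and the motif window.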

Additional observations from a re-analysis of the deposited data

How the results depend on the processing

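No paired analysis was possible because the list pools all samples and carries no replicate numbers, and for the same reason no replicate could be left out. Of 71 values recomputed under an alternative, 51 stayed within the limit of 1.5 times (or within the interval of a share). The other 20 moved beyond it. Of 34 results, 15 had no alternative beyond the limit. Reversals are not counted here, since a switch from above to below the share of all genes was scored as a move.

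The finding of 8 of 9 genes with a TSS peak was the same with a limit of 1500 bp, with any overlap within 500 bp, with any annotated TSS and with wide peaks only. It depended on the whole list. With the first 13485 peaks, 1 of 9 had a TSS peak (TAP2), beside 30.3% of all genes. Any peak in the window was present for 5 of 9, beside 58.7% of all genes. Both counts thus went from above the share of all genes to below it, by little for any peak. In that setting 9 distinct peaks remained in place of 24. Gene bodies alone held 15 distinct peaks. A flank of 50 kb gave HLA-B a peak (9 of 9 genes), where 82.5% of all genes had one. Using only the canonical transcript as gene body, an alternative chosen after seeing the data, left 22 peaks and the same 8 genes. The peaks lost were those 44.8 and 64.1 kb downstream of the IRF1 TSS. The count of IRF1 therefore rests in part on its longer annotated gene body.

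With the first 13485 peaks, 30.3% of all protein-coding genes had a TSS peak. The shares of the MHC blocks were 41.7% (class I), 37.3% (class III), 5% (class II) and 63.6% (extended class II). TSS peaks were found at 1 of 8 other class I-like genes, 2 of 7 genes of peptide supply and 1 of 4 chaperones. They were also found at 6 of 8 SXY module factors and 4 of 10 interferon signalling genes. The counts were 2 of 8 for other IRF genes and 0 of 12 for class II genes. With the whole list, a limit of 1500 bp raised the extended class II block from 81.8% to 100%. Allowing 2 mismatches, 5 of 9 genes in place of 9 had at least 90% single-locus stretches. In windows of 600 bp, the GAS element was upstream of 3 genes (14.5% of all promoters) and CCAAT of 9 (55.2%). At the 8 TSS-peak midpoints, the interferon response core was found in 4 (9.61% of all coding TSS peaks), TGACG in 4 (49.5%) and CCAAT in 6 (41.1%). A longer window contains the shorter, so such counts can only stay or rise. The unknown depth and the missing peak scores limit what the absence of a peak at HLA-B can show.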
